A study of Saccharomyces cerevisiae with 72 samples.

Results

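The comparison described here is the addition of *RIM4* in *kar4*Δ/Δ cells at 12 hours of meiosis. The members are 4 of the 72 libraries of a meiotic time course in diploid S288c budding yeast: 2 of *kar4*Δ/Δ carrying both Pzev-*IME1* and Pzev-*RIM4*, and 2 of *kar4*Δ/Δ carrying Pzev-*IME1* alone, which has *RIM4* under its own promoter. Pzev is a promoter that the act1pr-Z3EV activator switches on when β-estradiol is added, here on transfer to potassium acetate sporulation medium. Both strains therefore shared the homozygous *KAR4* deletion and the induced *IME1*. The wild type strains with the same promoters, named wild type Pzev-*IME1* and wild type Pzev-*IME1*/Pzev-*RIM4*, served as the points of reference at 12 hours. PolyA RNA was sequenced, and the deposited values were the authors' log2 fold changes of each condition against wild type with its own promoters at 0 hours. Each value combined 2 replicates, so the table held no replicate values, errors or depths, and every difference below is a description without a test. All log2 values below are either such a level (relative to that reference) or a difference between 2 levels, and a gene is said to rise or fall where the difference is at least 2-fold, that is 1 or more on the log2 scale.

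Kar4p is the yeast homolog of the mammalian METTL14 protein and takes part in the mRNA N6-methyladenosine writer complex that is active early in meiosis. Ime1p is the transcription factor that starts the meiotic programme, largely through the URS1 element of early genes. The RNA-binding protein Rim4p regulates the translation of meiotic mRNAs and is needed for the meiotic programme, and Ndt80p switches on the middle genes, which carry the MSE element and drive the divisions and spore formation.

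With added *RIM4*, the recombination and synapsis genes that had been low in *kar4*Δ/Δ stood less than 2-fold below wild type Pzev-*IME1*. It raised a set of spore formation genes (median difference 1.65) without bringing them to that level. A larger set of 194 low genes, not only of spore formation, changed less than 2-fold, with *SPS2*, *PIR5* and *DTR1* among them. Of the 194, 62 ended less than 2-fold below wild type Pzev-*IME1* all the same. The mRNAs of the cytosolic ribosomal proteins fell (median difference -2.37). In RNA of whole cultures, fewer cells that express a gene and less of its RNA per cell cannot be told apart. Of 6496 genes with a value in every condition, 405 (6.23%) were at least 2-fold higher and 593 (9.13%) at least 2-fold lower with added *RIM4*. The median difference over all genes was -0.06, and 5498 genes (84.6%) changed less than 2-fold. At a 4-fold size 27 genes (0.416%) were higher and 153 (2.36%) lower. Just inside the 2-fold limit lay *LEC1* at 1.001 and *KAR3* at 1.002, with *SPC98* just outside at 0.998.

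In the mutants the targeted genes followed their labels. The *RIM4* transcript stood at 1.74 without Pzev-*RIM4* in the mutant and at 4.48 with it, beside 3.72 in wild type Pzev-*IME1*. *KAR4* was at -4.54 and -8.33, against 0.85 in that wild type, so it was low in both mutants and lower still in the one with both promoters. *IME1* stood at 3.29 and 3.41 in the mutants and at 4.01 in wild type Pzev-*IME1*. In wild type Pzev-*IME1*/Pzev-*RIM4* at 12 hours, *RIM4* was at 3.35 and *IME1* at 1.93, both lower than in wild type Pzev-*IME1*. At 0 hours, before β-estradiol, *RIM4* was already at 3.21 in the wild type with both promoters, beside 0.70 in wild type Pzev-*IME1*. *IME1* was then at 3.03 beside 1.94. The 9 genes of the study's first wave of early Ime1p-dependent genes had a median level of 3.81 beside -0.05. Early meiotic genes were thus already raised at 0 hours in this reference strain. The study's strain list gives the *KAR4* deletions as *kar4::KANMX/kar4::URA3* in the mutant with Pzev-*IME1* and *kar4::LEU2/kar4::URA3* in that with both promoters, and gives the Z3EV activator on 1 chromosome in the former and on both in the latter. Pzev-*IME1* and Pzev-*RIM4* are each listed on 1 chromosome opposite an unaltered allele, and *his3* and *met15* are heterozygous in the mutant with Pzev-*IME1* only. The list does not say which strains were sequenced. *LEU2* was at 7.90 and 8.48 in the mutants, *HIS3* at 1.41 and -0.55, and *URA3* at 7.49 and 7.50. In wild type Pzev-*IME1*, *LEU2* was at 7.30 and *URA3* at 7.50. The high *LEU2* in the mutant with Pzev-*IME1*, and both values in wild type Pzev-*IME1*, go against the listed genotypes, which name no such marker there. Effects of these markers and of the activator's dose cannot be told apart from the addition of *RIM4*. The 23 haploid-specific and mating-type genes, which a diploid keeps repressed, had a median level of 0.85 without and 1.22 with added *RIM4*. Of these, *STE5*, a scaffold of the pheromone pathway, rose (1.11), and 0 fell.

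**Figure D1:**
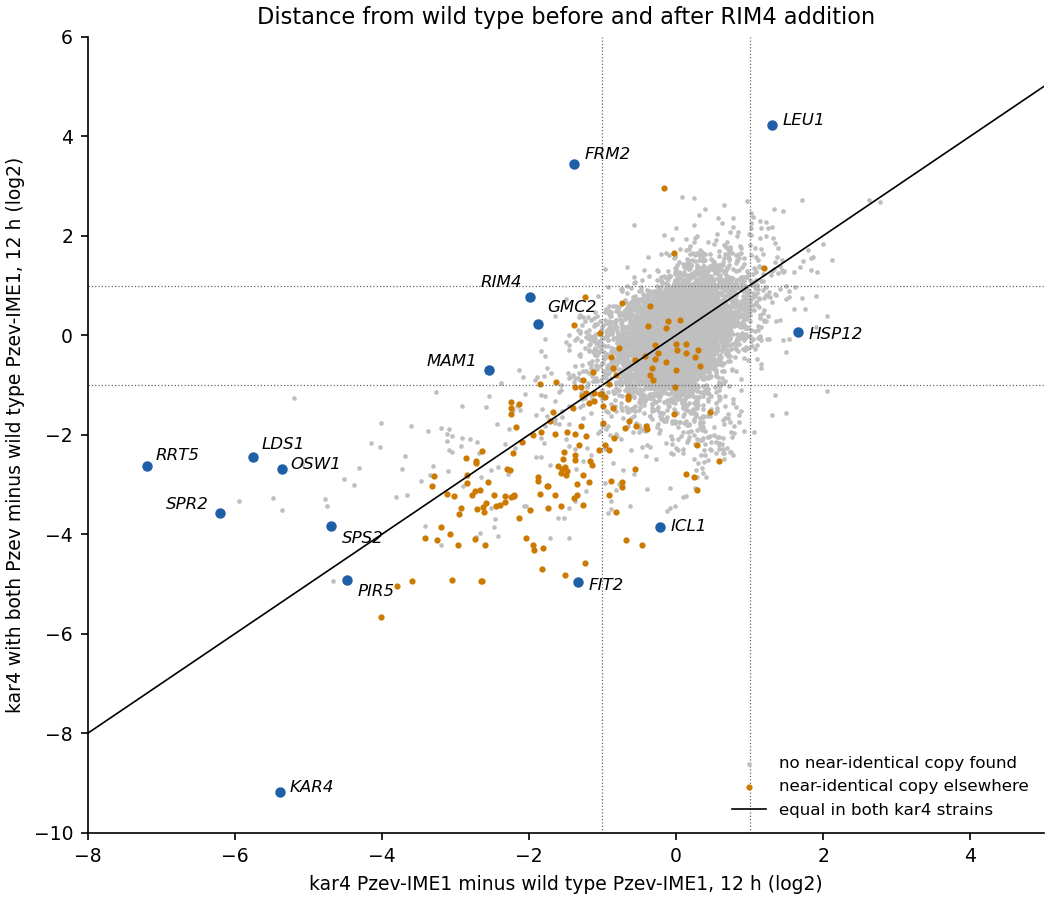
Each point is a gene, placed by its 12 hour difference from wild type Pzev-*IME1* without added *RIM4* (x axis, log2) and with it (y axis, log2), with orange for genes with a near-identical copy, blue for named genes, dotted lines at 2-fold and a solid line of equality. *RRT5*, *LDS1* and *OSW1* lie above the line but below the dotted line, *GMC2* lies inside the 2-fold band after the addition, and *SPS2* and *PIR5* lie near the line, at -3.84 and -4.91 after it.

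In *kar4*Δ/Δ Pzev-*IME1* at 12 hours 349 genes (5.37%) were at least 2-fold below wild type Pzev-*IME1*. They fell into 4 classes. With added *RIM4*, 58 rose and ended less than 2-fold below wild type Pzev-*IME1*, 29 rose and stayed at least 2-fold below it, 194 changed less than 2-fold, and 68 fell further. The 349 and the 68 include *KAR4* itself, which is deleted in both mutants. Of the 194, 62 ended less than 2-fold below wild type Pzev-*IME1* all the same, by a rise that was itself under 2-fold. The low call and the rise both contain the level in *kar4*Δ/Δ Pzev-*IME1*, with opposite signs, so an error in that level alone would make a gene look both low and restored. The classes are read below through time points and sequence features that they were not chosen on. Of the 349, 112 were protein-coding genes with a near-identical copy elsewhere in the genome, whose reads cannot be assigned with certainty, and 44 were not in the annotation used. The remaining 193 divided into 47, 27, 104 and 15 genes in the same order, *KAR4* among the 15, and class values over time and in sequence below are for these. The class that fell further held 47 genes with a copy of its 68. Over 156 genes with a copy that encode no ribosomal protein, the median difference from wild type Pzev-*IME1* was -1.48 and that on *RIM4* addition -0.58, against 0.01 and -0.02 in 5586 such genes without one. Over the time course the median level of the genes with a copy, minus that of the genes without one, was between -0.26 and 0.03 in wild type Pzev-*IME1* and between -2.30 and -1.45 in the other 3 strains, 0 hours included. Wild type Pzev-*IME1* thus lay near the reference in this respect, and the other 3 strains, wild type with both promoters included, departed from it. The low calls of genes with a copy accompany that gap.

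The first class included many genes of meiotic prophase. Among the 58 were 11 of the 38 measured genes of the study's second wave of early Ime1p-dependent genes, *RIM4* itself included, a list the study drew from its microarray data. *GMC2*, which promotes assembly of the synaptonemal complex, went from 5.04 to 7.13 and stood at 6.91 in wild type Pzev-*IME1*. *ECM11*, its partner in the same structure, went from 5.77 to 7.06 beside 6.99. *MEI5*, which loads the meiotic strand exchange protein Dmc1p, went from 7.84 to 9.40 beside 9.04. All 3 ended slightly above wild type Pzev-*IME1*, by less than 2-fold. The gene of the class that rose most was *FRM2*, a nitroreductase-like gene outside the meiotic lists, which went from 1.30 to 6.14 and overshot the 2.69 of wild type Pzev-*IME1*.

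Part of the low recombination genes rose as well. *SPO11*, the enzyme that makes meiotic double-strand breaks, went from 3.14 to 4.48 and was at 4.24 in wild type Pzev-*IME1*. *MEI4*, a factor needed for those breaks, went from 3.95 to 5.43 beside 5.23. *ZIP1*, the transverse filament of the synaptonemal complex, went from 2.86 to 4.16 beside 3.88. Within the class were also *MSH4* and *SPO22*, which promote crossovers, *NDJ1*, which tethers telomeres to the nuclear envelope, *SCC2*, which loads cohesin, and *PCH2*, a checkpoint ATPase. *MSH4* rose from 2.86 to 4.30 beside 4.19, and *PCH2* from 3.76 to 4.81 beside 4.87. *SAE3*, the partner of *MEI5*, was at 5.71 and 5.97 beside 6.47, a difference under 2-fold at each step. Of the low genes, 2 of 4 in the double-strand break list (*REC114* and *MER1*), 1 of 2 in the strand exchange list (*HED1*) and 3 of 6 in the crossover list (*CST9*, *SPO16* and *MSH5*) did not rise 2-fold. Their differences on *RIM4* addition lay between 0.40 for *SPO16* and just under 1.00 for *MSH5*, and all 6 ended less than 2-fold below wild type Pzev-*IME1*.

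Whole lists of prophase genes showed the same direction. Of 13 axis and synaptonemal complex genes 7 rose and 0 fell, with a median difference of 1.05, against 6.23% and 9.13% of all genes. Before the addition 5 of them were low against wild type Pzev-*IME1* (5.37% of all genes), and afterwards 0 were (11.0% of all genes). Of 16 genes of crossover formation and resolution 6 rose (median 0.72), of 15 genes of the double-strand break machinery 3 rose (median 0.36), and of 17 strand exchange genes 2 rose (median 0.30), with 0 falling in any of the 3 lists. The second-wave list had 17 of 38 genes higher (median 0.87), *RIM4* itself included, and the 9 genes of the first wave had 3 (median 0.94).

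These rises depended on how the columns were scaled. The spread of log2 fold changes over all genes was wider with added *RIM4* (SD 1.45) than without (SD 1.03). When all 36 columns were given the same distribution by quantile normalization, 2.11% of all genes rose and 1.86% fell at 12 hours, and 0 of the 13 axis genes, 0 of the 16 crossover genes and 1 of the 38 second-wave genes were at least 2-fold higher at 12 hours. The medians of the first-wave and the strand exchange lists then changed sign, both to -0.31. At 4 hours, 12 of the 13 axis genes rose as deposited (median 1.75) and 8 after quantile normalization (median 1.11), and of the second wave 25 and 14 rose, beside 5.73% of all genes as deposited and 3.56% after quantile normalization. At 4 hours quantile normalization took the first-wave count from 7 to 3 of 9 genes, the crossover count from 8 to 6 of 16, the double-strand break count from 7 to 4 of 15 and the strand exchange count from 4 to 1 of 17. At 4 hours the counts were thus lower in each list after quantile normalization, least so in the axis and crossover lists and most so in the strand exchange list. That order did not hold at 12 hours, where the axis and crossover counts both went to 0.

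The second class held genes of spore formation. *RRT5*, a gene whose product has no established molecular function, went from 1.65 to 6.21 and was at 8.84 in wild type Pzev-*IME1*. *LDS1*, a lipid droplet protein of sporulating cells that is needed for a normal spore wall, went from 3.41 to 6.71 beside 9.16. *OSW1*, which is needed for the outer spore wall, went from 1.28 to 3.96 beside 6.64. These were among the 12 largest rises of the table, and each left the gene more than 4-fold below wild type Pzev-*IME1*.

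*CDA2*, a chitin deacetylase that makes the chitosan layer of the spore wall, went from 0.12 to 2.73 and was at 6.06 in wild type Pzev-*IME1*. *SPR2*, a putative spore wall protein, went from 0.70 to 3.32 beside 6.90. *SPO19*, a prospore membrane protein, went from 0.83 to 3.04 beside 6.31. All 3 thus recovered by more than 2 on the log2 scale and still lay more than 3 below that wild type. The protein kinase gene *SPS1*, which acts in spore wall assembly, went from 1.62 to 3.27 beside 5.94, and *GAS4*, a glucanosyltransferase of the spore wall, from 1.13 to 2.45 beside 4.32. Over the 29 genes the median difference from wild type Pzev-*IME1* was -4.15 before the addition and -2.43 after it, with a range of -3.58 to -1.14. Median levels at 12 hours over the 27 genes without a copy were 0.93 and 2.92 in the mutants, 5.74 in wild type Pzev-*IME1* and 11.76 in wild type Pzev-*IME1*/Pzev-*RIM4*, so the gap to the wild type with both promoters was wider still.

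The third class was the largest, and it also held spore formation genes. *SPS2*, a protein of the spore wall, was at 1.04 without and 1.89 with added *RIM4*, against 5.73 in wild type Pzev-*IME1*. *PIR5*, a cell wall protein, was at -0.08 and -0.53 against 4.39. *DTR1*, the transporter that exports bisformyl dityrosine for the outer spore wall, was at 1.36 and 1.91 against 4.83. None of the 3 changed 2-fold, and all 3 stayed more than 4-fold below wild type Pzev-*IME1*.

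Also in the third class were genes of the meiotic divisions and of the prospore membrane. *CDC5*, the polo kinase that drives exit from prophase, was at 0.45 and 0.91 against 2.04. *CLB1*, a B-type cyclin of the meiotic divisions, was at -1.43 and -1.52 against 0.12. *SSP1*, a coat protein of the growing prospore membrane, was at 0.89 and 1.27 against 3.16, and *SMK1*, the kinase of spore wall assembly, was at -0.42 and 0.09 against 0.80. The differences of these 4 genes lay between -0.09 and 0.51.

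*NDT80* itself was at 0.23 without and 1.27 with added *RIM4*, beside 2.12 in wild type Pzev-*IME1* and 6.04 in wild type Pzev-*IME1*/Pzev-*RIM4*. Of the 50 measured genes of the *NDT80* regulon, 17 rose and 0 fell, with a median difference of 0.62, where 6.23% of all genes rose and 9.13% fell. Before the addition 32 were low against wild type Pzev-*IME1* (5.37% of all genes), and 23 were afterwards (11.0% of all genes). The median level of the list was 0.85 in *kar4*Δ/Δ Pzev-*IME1*, 2.00 with added *RIM4*, 2.85 in wild type Pzev-*IME1* and 7.05 in wild type Pzev-*IME1*/Pzev-*RIM4*. Among 30 spore wall genes 7 rose (median 0.53), among 24 prospore membrane and meiotic plaque genes 9 rose (median 0.76), among 20 other mid-late and late genes 10 rose (median 0.90), and among 24 genes of the divisions 3 rose (median 0.44), with 0 falling in each. After quantile normalization 11 of the 50 *NDT80* regulon genes still rose, beside 2.11% of all genes.

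**Figure D2:**
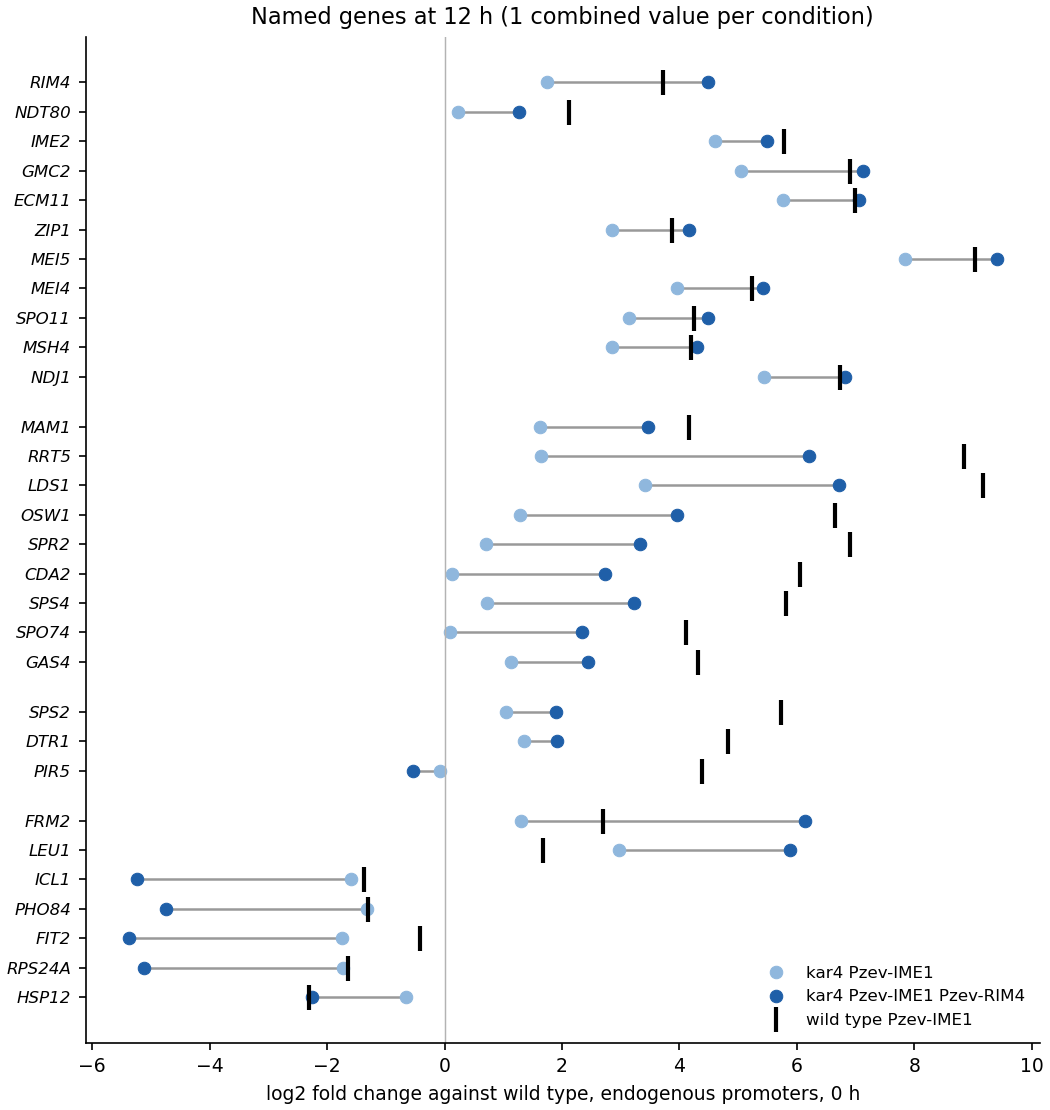
Points give the deposited log2 fold change (x axis) of named genes (y axis) at 12 hours in *kar4*Δ/Δ Pzev-*IME1* (light blue) and *kar4*Δ/Δ with both promoters (dark blue), and black bars give wild type Pzev-*IME1*. Dark points of the prophase genes from *GMC2* to *NDJ1* lie close to the bars, those of the raised spore formation genes lie between the light points and the bars, as for *RRT5* (6.21 between 1.65 and 8.84), and those of *SPS2*, *DTR1* and *PIR5* stay near the light points.

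The genes that wild type turns on late were also examined, with a list that did not use the *kar4*Δ/Δ columns. In wild type Pzev-*IME1*, 82 genes rose at least 4-fold between 6 and 12 hours. Added *RIM4* raised 47 of these in *kar4*Δ/Δ and lowered 0, with a median difference of 1.19, where 6.23% of all genes rose and 9.13% fell. Of the 82, 77 were low before the addition and 59 after it (11.0% of all genes were low after it). These low counts follow in part from the choice of the list, which selects genes that are high in wild type Pzev-*IME1* at 12 hours, and nothing is read from them. Their median level at 12 hours was 1.06 without and 2.33 with added *RIM4*, 4.15 in wild type Pzev-*IME1* and 9.07 in wild type Pzev-*IME1*/Pzev-*RIM4*. After quantile normalization the median difference was 0.53 and 19 genes rose, beside 2.11% of all genes.

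The classes differed in when they rose. In the first class 23 of 47 genes were already at least 2-fold higher with added *RIM4* at 4 hours (median difference 0.98), and 23 at 8 hours (0.99), the latter beside 3.82% of all genes. The second class rose later. In it 1 of 27 genes was higher at 4 hours (median -0.07) and 2 at 8 hours (0.19), and the median was 1.77 at 12 hours. *LDS1* differed by -0.43 at 8 hours, *OSW1* by -0.67 and *CDA2* by -0.50, and *RRT5* by 1.08. The late genes were thus raised at 12 hours and, apart from *RRT5* among these 4, not at 8 hours. *RIM4* itself was at a steady 4.31 to 4.48 from 2 hours on in *kar4*Δ/Δ with both promoters. At 0 hours, before β-estradiol, the first class had a median difference of 0.08 with 2 genes higher.

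**Figure D3:**
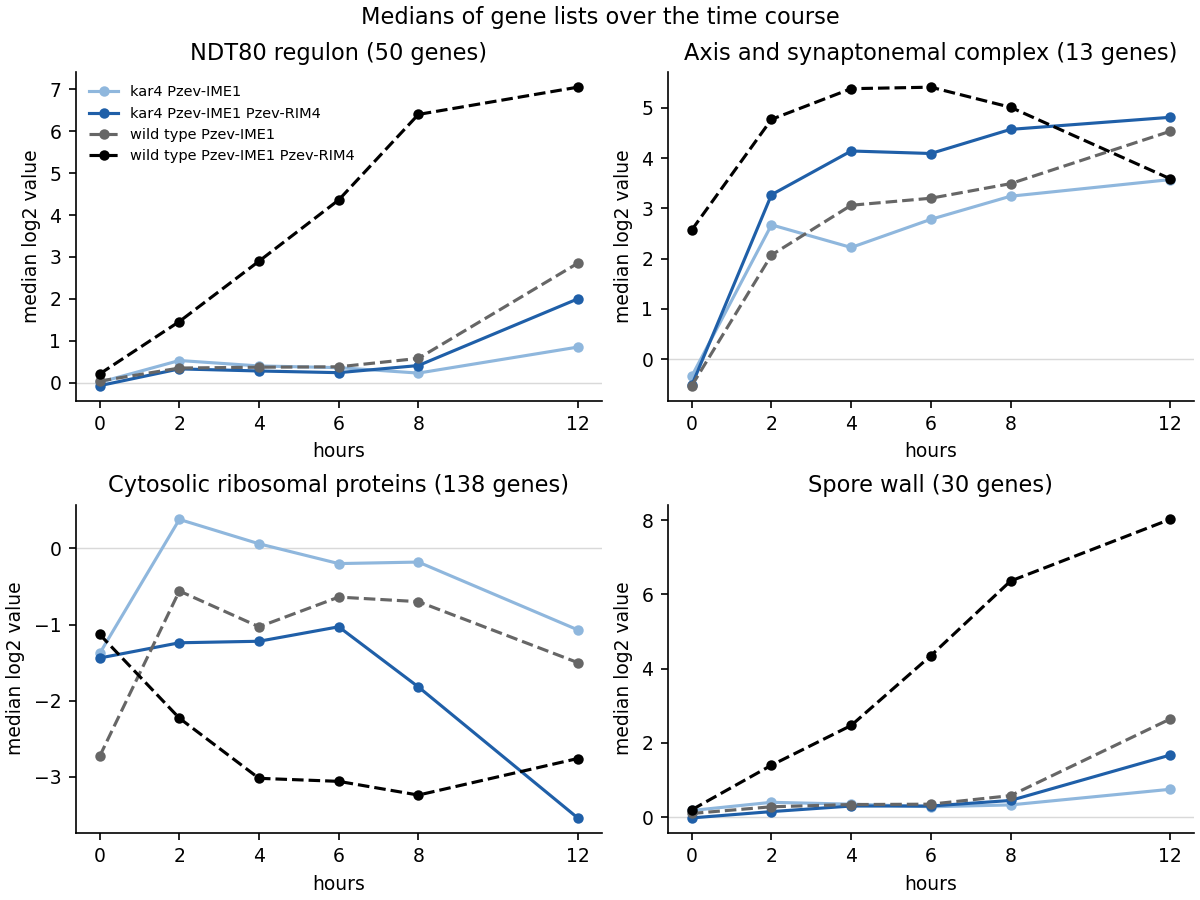
Lines join the median log2 level (y axis) of 4 gene lists over the 6 sampled hours (x axis) in *kar4*Δ/Δ Pzev-*IME1* (light blue), *kar4*Δ/Δ with both promoters (dark blue), wild type Pzev-*IME1* (grey) and wild type with both promoters (black). The *NDT80* regulon of the mutant with both promoters leaves that of the mutant with Pzev-*IME1* at 12 hours (2.00 against 0.85), while the axis genes part by 4 hours (4.14 against 2.22).

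The classes also differed in their start windows, which were not used to form them. The window of each of 5880 protein-coding genes ran from 250 bases before the start codon to 49 bases after its first base (300 bases in all), taken from the RefSeq R64 genome (sacCer3). The MSE core was searched as CACAAA and the URS1 core as GGCGGC, each on either strand. Neither core contains the other, and a match is a run of letters and not a binding site. The MSE core was in 19.0% of all windows, in 85.2% of the second class (23 of 27), in 52 of 104 of the third and in 31.9% of the first (15 of 47). The URS1 core was in 5.17% of all windows, in 31.9% of the first class (15 of 47), in 16.3% of the third (17 of 104) and in 3.70% of the second (1 of 27). In these windows the URS1 core was more frequent in the class that reached wild type Pzev-*IME1*, and the MSE core in the class that rose late and stayed below it. The windows printed, a pair of each of these 3 classes, show where the cores lie and were chosen among named genes with the core in question. The choice went by the rise on *RIM4* addition in the first and second class and by the gap of *kar4*Δ/Δ to wild type Pzev-*IME1* in the third. As an exception, *YGL138C* of the second class is not printed, though it has an MSE core and a rise (3.92) above that of *LDS1*. Those of *RRT7* (chrXII:80648-80947, minus strand) and *ADY3* (chrIV:28726-29025, minus strand) are from the first class with the URS1 core in capitals. The window of *ADY3* also holds an MSE core, which is not capitalized. Those of *RRT5* (chrVI:222910-223209, minus strand) and *LDS1* (chrI:119492-119791, minus strand) are from the second, and those of *SPS2* (chrIV:1485254-1485553, minus strand) and *PIR5* (chrX:118776-119075, minus strand) from the third, with the MSE core in capitals. All are written 5′ to 3′ on the gene's strand, and a core on the other strand reads GCCGCC or TTTGTG.
RRT7: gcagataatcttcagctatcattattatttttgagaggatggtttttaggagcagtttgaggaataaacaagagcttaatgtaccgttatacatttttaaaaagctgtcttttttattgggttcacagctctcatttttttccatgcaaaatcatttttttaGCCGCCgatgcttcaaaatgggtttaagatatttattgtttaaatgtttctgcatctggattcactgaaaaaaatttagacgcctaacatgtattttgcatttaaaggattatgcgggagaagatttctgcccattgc
ADY3: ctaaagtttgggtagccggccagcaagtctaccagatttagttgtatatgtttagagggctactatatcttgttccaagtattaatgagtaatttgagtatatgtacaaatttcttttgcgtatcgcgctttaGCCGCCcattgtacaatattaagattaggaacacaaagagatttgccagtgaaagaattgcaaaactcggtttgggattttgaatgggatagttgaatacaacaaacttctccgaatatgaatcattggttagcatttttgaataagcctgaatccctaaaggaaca
RRT5: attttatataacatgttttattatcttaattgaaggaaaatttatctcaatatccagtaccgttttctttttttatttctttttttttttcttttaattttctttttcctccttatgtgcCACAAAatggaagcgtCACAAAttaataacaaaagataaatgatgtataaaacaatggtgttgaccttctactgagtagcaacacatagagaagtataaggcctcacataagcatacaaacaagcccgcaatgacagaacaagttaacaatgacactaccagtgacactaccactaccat
LDS1: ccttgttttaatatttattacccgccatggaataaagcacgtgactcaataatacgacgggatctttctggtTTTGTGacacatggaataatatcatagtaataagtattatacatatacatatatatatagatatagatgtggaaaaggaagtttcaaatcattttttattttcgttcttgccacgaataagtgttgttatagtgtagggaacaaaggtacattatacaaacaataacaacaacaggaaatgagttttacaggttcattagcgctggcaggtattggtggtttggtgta
SPS2: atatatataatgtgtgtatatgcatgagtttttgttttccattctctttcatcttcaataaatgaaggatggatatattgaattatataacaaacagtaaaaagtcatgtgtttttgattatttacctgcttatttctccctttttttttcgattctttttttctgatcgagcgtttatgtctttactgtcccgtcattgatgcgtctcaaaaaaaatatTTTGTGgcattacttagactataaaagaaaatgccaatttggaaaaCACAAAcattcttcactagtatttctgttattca
PIR5: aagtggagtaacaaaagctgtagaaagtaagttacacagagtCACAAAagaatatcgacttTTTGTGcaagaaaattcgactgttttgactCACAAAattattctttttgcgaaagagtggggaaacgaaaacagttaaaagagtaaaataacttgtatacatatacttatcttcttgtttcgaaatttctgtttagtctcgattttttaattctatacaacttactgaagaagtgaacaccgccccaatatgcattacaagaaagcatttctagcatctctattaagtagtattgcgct
The windows of *RRT5* and *SPS2* held 2 MSE cores each and that of *PIR5* held 3, while the expression differences of the 3 genes were 4.55, 0.85 and -0.44. *RRT7* went from 5.60 to 7.80 beside 7.08 in wild type Pzev-*IME1*, and *ADY3*, a protein of the prospore membrane's leading edge, from 0.32 to 1.94 beside 1.58.

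Of the genes that fell with added *RIM4*, 134 were cytosolic ribosomal protein genes of 138 measured, with a median difference of -2.37 and 0 higher. Their fall did not rest on near-identical copies, since 117 of the 120 without one also fell (median -2.36). Among all protein-coding genes without a copy 5.91% rose and 7.94% fell. *RPS24A*, a small subunit protein, went from -1.72 to -5.12. At 0 hours the list differed by -0.06 with 0 genes lower, and from 2 to 8 hours its median was between -1.66 and -0.87. These mRNAs were thus lower than in the mutant with Pzev-*IME1* at each time after the induction, and equal before it, to within 0.06 in the median. Their median level with both promoters was -1.44 at 0 hours, -1.24 at 2 hours, -1.03 at 6 hours and -3.54 at 12 hours. With Pzev-*IME1* alone it was -1.38, 0.38, -0.20 and -1.07 at those times. At 2 and 6 hours the difference thus came with a rise in the mutant without Pzev-*RIM4*. In wild type the median difference at 12 hours was -1.21, with 84 genes lower, where 24.0% of all genes rose and 20.3% fell. The wild type strains were not equal at 0 hours, where this median was 1.60 and 934 of 6496 genes were higher and 348 lower. After quantile normalization the median in *kar4*Δ/Δ was -0.80 and 44 genes were lower. The ribosomal protein mRNAs had not been low in *kar4*Δ/Δ Pzev-*IME1*, where 6 of 138 were below wild type Pzev-*IME1* (5.37% of all genes). With added *RIM4* 129 were (11.0% of all genes).

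Genes of mitochondrial energy metabolism and of acetate use also fell. Of all genes 9.13% fell and 6.23% rose, the shares to set beside the lists that follow. Of 44 respiratory chain and TCA cycle genes 20 fell and 0 rose (median -0.93). After quantile normalization 2 of the 44 fell, beside 1.86% of all genes. Of 25 genes of acetate use, the glyoxylate cycle and gluconeogenesis 9 fell (median -0.45, and 0.12 after quantile normalization). *ICL1*, the isocitrate lyase of the glyoxylate cycle, went from -1.60 to -5.23, beside -1.37 in wild type Pzev-*IME1*. *PHO84*, the high-affinity phosphate transporter, went from -1.32 to -4.75 beside -1.31. Of 56 amino acid biosynthesis genes 15 fell and 3 rose (median -0.73). One that rose was *LEU1*, isopropylmalate isomerase of leucine synthesis, from 2.97 to 5.89, in strains that are listed with different *LEU2* alleles.

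Several of the genes that were low in *kar4*Δ/Δ and fell further take part in iron uptake. These genes were picked with their values in view, and no list of iron genes was counted. *FIT2*, a cell wall mannoprotein that retains siderophore iron, went from -1.74 to -5.37 and was at -0.41 in wild type Pzev-*IME1*. *FET3*, the multicopper oxidase of high-affinity iron uptake, went from -1.86 to -4.48 beside -0.40, and *FTR1*, its permease partner, from -1.46 to -3.54 beside 0.14. *ARN1* and *ENB1*, which take up siderophore iron, and *TIS11*, which degrades mRNAs of iron-using proteins, fell by 1.96, 1.89 and 2.14. *FIT1* went the other way, from -1.45 to 0.00. In wild type with both promoters *FIT2* was at -4.37 and *FET3* at -3.98, so *FIT2* and *FET3* were low in both strains with Pzev-*RIM4*.

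**Figure D4:**
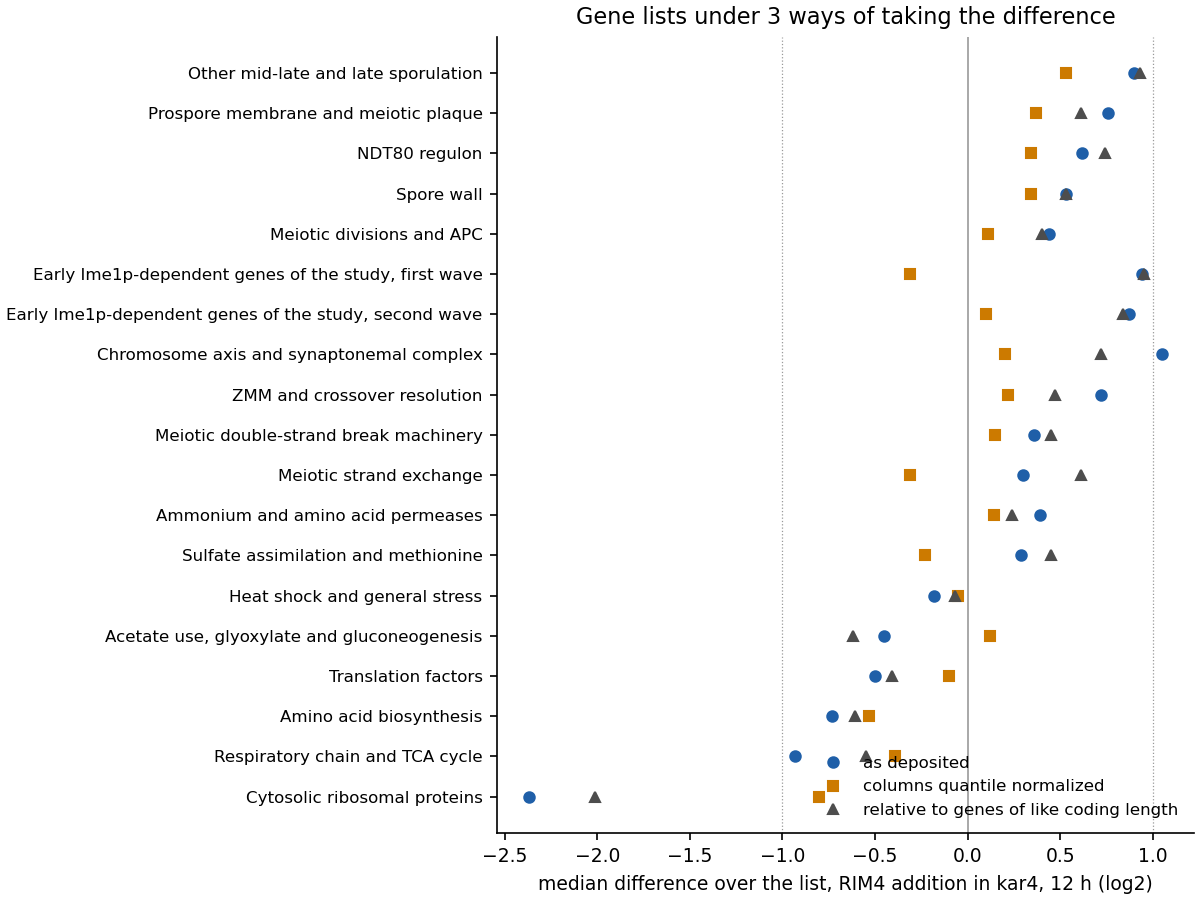
Points give the median difference over each gene list on *RIM4* addition in *kar4*Δ/Δ at 12 hours (x axis, log2), as deposited (circles), after quantile normalization of the columns (squares) and relative to genes of like coding length (triangles), with dotted lines at 2-fold. Ribosomal proteins lie at -2.37, -0.80 and -2.01, and the axis genes at 1.05, 0.20 and 0.72.

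The opposite departure, genes at least 2-fold above wild type Pzev-*IME1* in *kar4*Δ/Δ, numbered 150 (2.31%). With added *RIM4*, 32 of them fell to less than 2-fold above it, 0 fell and stayed that high, 107 changed less than 2-fold and 11 rose further. Of the 32, 27 ended less than 2-fold from wild type Pzev-*IME1* and the others fell past it, to -1.95 at the lowest. The 32 included 4 cytosolic ribosomal protein genes. Stress genes were among those that came down. *CTT1*, the cytosolic catalase, went from -0.68 to -1.79 beside -2.58 in wild type Pzev-*IME1*, and *GLK1*, glucokinase, from -0.81 to -1.89 beside -2.18. *GRE2*, a stress-induced reductase, stayed high at -1.58 and -1.67 beside -4.35. Of 35 heat shock and general stress genes 8 were high before the addition and 5 after it (6.22% of all genes), and 8 fell with it. After quantile normalization 0 of the 35 fell and 1 rose.

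Gene length moved with the addition. Over the protein-coding genes the difference rose with coding length (Spearman's rho 0.53, a description across genes that share libraries), from a median of -0.44 in the shortest of 10 length groups to 0.73 in the longest, ribosomal proteins left out. In the longest group, 138 genes rose and 20 fell. The same relation was present at 0 hours in *kar4*Δ/Δ, before β-estradiol was added (0.47), and was weaker in wild type (0.03 to 0.22). Read against genes of like length, 261 of 5880 protein-coding genes (4.44%) rose and 332 (5.65%) fell. Of the 343 protein-coding genes that rose as deposited, only 149 were among those 261. Of the 524 that fell as deposited, 303 were among those 332. Of the genes named above, *SPS2* then differed by 0.77, *GMC2* by 2.52 and *RRT5* by 4.84. *ECM11*, *MEI5*, *SPO11*, *MEI4* and *NDJ1* also stayed above 2-fold (1.47 to 1.99). *ZIP1* (0.79), *MSH4* (0.93), *SCC2* (0.72), *SPO22* (0.70), *PCH2* (0.91) and *NDT80* (0.81) then fell short of 2-fold. The ribosomal protein median was -2.01 and the *NDT80* regulon median 0.74 with 14 genes higher. In the axis list 3 of 13 genes were then higher (median 0.72), and in the crossover list 1 of 16 (median 0.47). The part of length in each result was not tested.

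**Figure D5:**
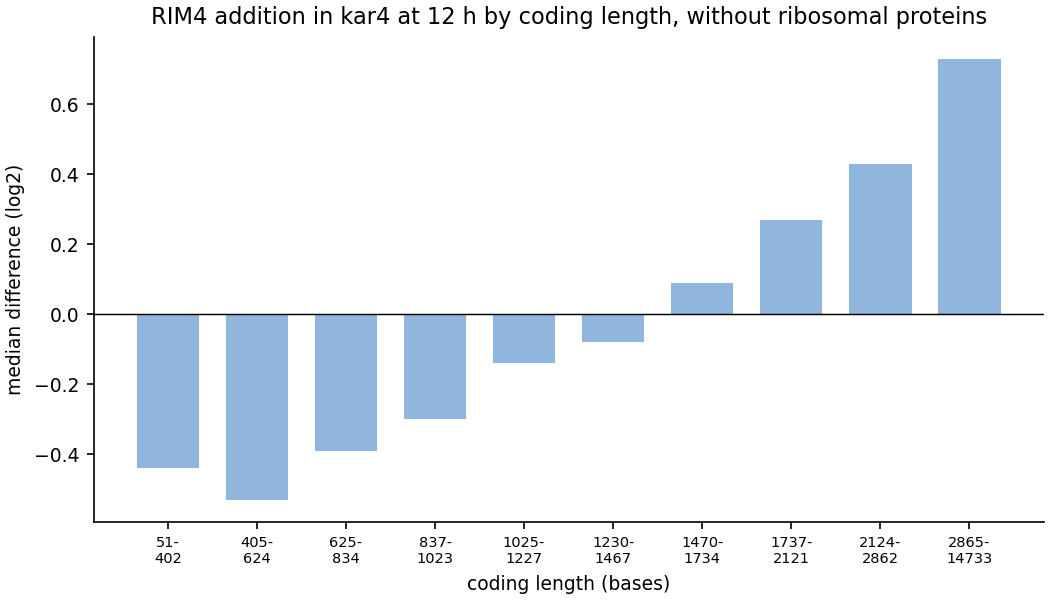
Bars give the median difference on *RIM4* addition in *kar4*Δ/Δ at 12 hours (y axis, log2) in 10 groups of protein-coding genes by coding length (x axis, bases), without ribosomal proteins. The median goes from -0.44 and -0.53 in the 2 shortest groups to 0.73 in the longest.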

How the data were processed

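PolyA RNA of a 12 hour meiotic time course was sequenced in 2 genotypes and 3 promoter backgrounds at 6 time points (72 libraries, 2 replicates per condition). Per the study's methods, the authors mapped reads with BWA-MEM to the yeast genome (sacCer3 per the submitters' processing notes), counted them with htseq-count and ran DESeq2. Versions and the strand setting of the counting are not given in the sources used here, so reads of a gene cannot be separated from those of one that overlaps it. The deposited values used here are the authors' log2 fold changes of 36 conditions against wild type with its own promoters at 0 hours, replicates combined. The planned tests on counts could therefore not be run, and depth is unknown. The study calls the replicates biological. Another 16 unnamed columns were not used.

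The *RIM4* addition is the level in *kar4*Δ/Δ Pzev-*IME1*/Pzev-*RIM4* minus that in *kar4*Δ/Δ Pzev-*IME1* at 12 hours. Of 6660 genes, 6496 had a value in every condition. A change is at least 2-fold (log2 of 1). The comparisons share columns, so their values are not independent of each other. Named genes were the 12 highest and 12 lowest, the study's RNA-seq genes, *IME1*, *RIM4*, *KAR4*, strain markers, up to 4 genes per list with the largest change, and the 8 lowest of each class of low genes; others were chosen after their values were seen. Members and lists were chosen with earlier results of these data known. The annotation held 5986 of the IDs (5880 protein-coding genes measured). A near-identical copy is a blastn 2.17.0 match of at least 97% identity over at least 150 bases. The difference relative to genes of like length subtracts a running median over 301 genes ordered by coding length. Scripts ran in Python 3.11.15 with numpy 2.4.6, pandas 2.3.3, scipy 1.17.1, matplotlib 3.10.9 and Biopython 1.88, and were tested on simulated data.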

Additional observations from a re-analysis of the deposited data

Results flagged for a closer look

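Between the strains with and without Pzev-*RIM4*, 90 genes differed at least 2-fold in opposite directions in *kar4*Δ/Δ and in wild type at 12 hours. Of these, 41 were higher in *kar4*Δ/Δ and lower in wild type. The *RIM4* transcript itself rose in *kar4*Δ/Δ (2.74) but not in wild type (-0.37), where *IME1* was lower (-2.08). The contrast is thus not one of raised *RIM4* RNA in both genotypes at 12 hours. The differences between the genotypes were not tested, since each condition has 1 combined value. The 13 described below are those among the named genes. Of these, 5 fell in *kar4*Δ/Δ and rose in wild type. *ICL1*, isocitrate lyase, differed by -3.63 in *kar4*Δ/Δ and 2.42 in wild type, and *PCK1*, the key enzyme of gluconeogenesis, by -1.49 and 3.66. *RGI2*, a gene of respiratory growth, differed by -1.67 and 2.50, *HSP12*, a small heat shock protein, by -1.60 and 1.73, and *DPA10* by -3.38 and 2.75.

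The other 8 rose in *kar4*Δ/Δ and fell in wild type. *MEP2*, the ammonium permease, differed by 1.35 in *kar4*Δ/Δ and -6.64 in wild type, and *GAP1*, the general amino acid permease, by 1.23 and -5.17. *PUT1*, proline oxidase, differed by 1.59 and -1.06, *ARO9*, an aromatic aminotransferase, by 2.10 and -1.40, and *CYS3*, cystathionine gamma-lyase, by 1.57 and -1.27. The prophase genes *SCC2* (1.53 and -1.04), *NDJ1* (1.38 and -1.04) and *MEK1*, a meiotic checkpoint kinase (1.18 and -1.52), were the remaining ones. Their opposite direction did not hold at 4 hours, when all 3 were higher with Pzev-*RIM4* in both genotypes. In wild type *SCC2* was then at 4.03 with both promoters beside 1.53 with Pzev-*IME1*, *NDJ1* at 7.63 beside 4.99 and *MEK1* at 6.82 beside 4.49.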

How the results depend on the processing

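No paired analysis was possible because the table combines the replicates, and for the same reason no replicate was left out and no count model was run. Centring each column, using genes with a value in the compared columns only, and using protein-coding genes only kept each count of genes within 1.5 times of the count given and each direction. Where other settings moved a value, its cause was not tested. After quantile normalization 137 genes rose and 121 fell (405 and 593 as deposited). Of the low genes, 21 rose to less than 2-fold below wild type, 14 rose and stayed low, and 5 fell further (58, 29 and 68). Of the high genes, 11 came down and 2 rose further (32 and 11). Of the 82 late genes 19 rose (47; median 0.53 against 1.19). *PCK1* changed sign, to 0.07 from -1.49. At a 4-fold size 27 genes rose and 153 fell, 128 were low (3, 7, 114 and 4 in the 4 classes), and 6 were high, of which 1 came down, 5 did not and 0 rose further. At that size 14 late genes rose and 38 remained low (59). Relative to genes of like length, an alternative chosen after seeing the data, 261 rose and 332 fell, 17 high genes came down and 7 rose further. Of the 261 and 332, 149 and 303 also rose and fell as deposited. Without near-identical copies, also chosen after seeing the data, 193 genes were low, 104 of them not raised and 15 lowered further. With the late list taken at a 2-fold rise, 102 genes rose and 2 fell (median 0.78). For the 426 genes that rose at least 4-fold from 2 to 8 hours in wild type with both promoters, 79 rose, 9 fell and 97 remained low. These counts were 26 and 2 rising and falling after quantile normalization, 14 and 2 with 49 low at a 4-fold size, 5 falling relative to length, and 38 and 1 with the list taken at 16-fold.
Of 148 named genes, quantile normalization took 59 to under 2-fold and 2 past it, and the length comparison took 26 of those that had a length to under 2-fold and 2 past it.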

Other observations

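As deposited, 6.23% of all genes rose and 9.13% fell. Of 28 genes of allantoin, urea, proline and arginine use 9 rose and 2 fell with added *RIM4* in *kar4*Δ/Δ (median 0.21), of 26 ammonium and amino acid permeases 5 rose and 0 fell (0.39), and of 25 genes of sulfate assimilation and methionine synthesis 5 rose and 0 fell (0.29). Of 18 hexose transporter genes 3 rose and 2 fell (0.13). After quantile normalization the permeases had 0 genes higher, the allantoin, urea, proline and arginine list 1 higher and 3 lower, the sulfate and methionine list 0 higher (median -0.23) and the hexose transporters 0 higher and 0 lower. Autophagy genes numbered 3 higher and 0 lower of 21 (0.10), and 0 higher after quantile normalization.

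Of 93 ribosome biogenesis genes 2 rose and 4 fell (median -0.06), of 35 translation factor genes 0 rose and 7 fell (-0.50), and of 33 proteasome genes 1 rose and 0 fell (0.16). After quantile normalization 0 translation factor genes fell, and without genes that have a near-identical copy 1 of the list fell. Of 44 DNA replication and nucleotide supply genes 1 rose and 1 fell (-0.01), and of 10 histone genes none rose or fell 2-fold (-0.01). Cyclin and *SIC1* genes had 1 of 12 higher and 0 lower (0.34), genes of daughter cell separation 2 of 14 higher and 1 lower (0.27), and glycogen and trehalose genes 0 of 18 higher and 0 lower (0.11). Of 17 regulators of meiotic entry and progression 3 rose (*NDT80*, *RIM15* and *RIM4*), and *KAR4* alone fell. *RIM4* is the gene under Pzev and *KAR4* is deleted in both mutants, so nothing is read from these 2.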
